A study of Mus musculus with 2 samples.

Results

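Gasdermins, Il18 and the inflammasome sensors were followed as 10 genes, named by symbol, in 2 spatial transcriptome sections of mouse intestine. The genes are the gasdermins Gsdmc2, Gsdmc3, Gsdmc4, Gsdmd and Gsdme, the cytokine gene Il18, the sensors Nlrp6, Nlrp3 and Nlrc4, and the adaptor gene Pycard. All 10 were found among the 54658 gene symbols of the files. One section is labelled Dpf2 KO and the other WT, and both were given 10 Gy of X-rays, so no section is unirradiated. Each was cut at 10 µm from fresh frozen tissue and laid on an array of barcoded spots. Not given in the sources used here were the stretch of gut, the time after irradiation, the age and sex of the mice and the tissue in which Dpf2 was deleted.

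Gasdermins are proteins whose cleaved amino-terminal part forms pores in membranes, through which a cell can release its content and die by pyroptosis. Inflammasome sensors such as NLRP3, NLRC4 and NLRP6 gather the adaptor ASC, the product of Pycard, and activate caspase-1, which cleaves gasdermin D and the precursors of interleukin 18 and interleukin 1β. Intestinal epithelial cells make the interleukin 18 precursor and NLRP6 without infection, whereas NLRP3 is best known from myeloid cells, and in mouse gut the gasdermin C genes are known to be induced by the type 2 cytokines interleukin 4 and interleukin 13 through STAT6.

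The section labelled KO holds 88056 spots with 89754886 counts and a median of 932 counts per spot, and the section labelled WT holds 50970 spots with 39824941 counts and a median of 721. A spot here means 1 deposited barcode, and 45557 spot names occur in both sections at the same positions, since the names follow the grid of the array. Dpf2 itself, a subunit of the BAF chromatin remodelling complex, stood at 26.0 counts per 1000000 counts of the section (CPM) in the section labelled KO and 23.6 CPM in the section labelled WT. The gene's level was thus not lower in the section labelled KO. Counts per gene do not show single exons, so a deletion of part of the gene was not checked, and every direction below is between sections as labelled. The sections differed in tissue content. Enterocyte markers summed to 26110 CPM in the section labelled KO and 402 CPM in the section labelled WT, with 12 of 12 higher and none at 0 counts in either section, and with 23281 to 28692 CPM over 4 parts of the section labelled KO and 215 to 861 CPM over 4 parts of the section labelled WT. The 8 neutrophil markers summed to 4.60 CPM in the section labelled KO and 539 CPM in the section labelled WT, and the 9 Paneth cell markers to 5824 CPM in the section labelled KO and 88335 CPM in the section labelled WT. With 1 section per genotype there is no test of a difference, no p-value is given, and 95% intervals cover counting error only. Fewer cells of a type and less RNA per cell cannot be told apart in such sums.

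Between the sections, the gasdermin C genes, Gsdmd, Il18, Nlrp6 and Pycard were higher in the section labelled KO, Nlrp3 was lower, and Gsdme and Nlrc4 lay close together. Of the 9 members with 200 or more counts over both sections, 6 exceeded a ratio of 2 in favour of the section labelled KO, as did 15.7% of all 14516 genes with as many counts. A single member, Nlrp3, was lower there by 2-fold or more, as were 19.7% of all genes, and the other 2 lay within 2-fold. The minimum is on the sum of both sections, so a gene can pass it through the section where it is high. Gsdmc2 (837 counts KO, 3 WT) and Gsdmc4 (1264 KO, 8 WT) passed through the section labelled KO alone. Nlrp3 (51 KO, 245 WT) passed through the section labelled WT alone. The calls of these members are therefore no support for a direction. Enterocyte markers moved with the 6 higher members, and their part in these ratios was not tested. The median log2 ratio of KO over WT was 2.35 over these 9 members and −0.18 over all 14516 genes. Each section was also cut by position into 4 parts with equal numbers of spots, which gives a range within a section but not a spread over animals. All 4 parts of the section labelled KO lay above all 4 of the section labelled WT for 6 of the 9, which 31.6% of all genes did, and below them for Nlrp3 and Nlrc4, which 42.8% of all genes did.

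**Figure D1:**
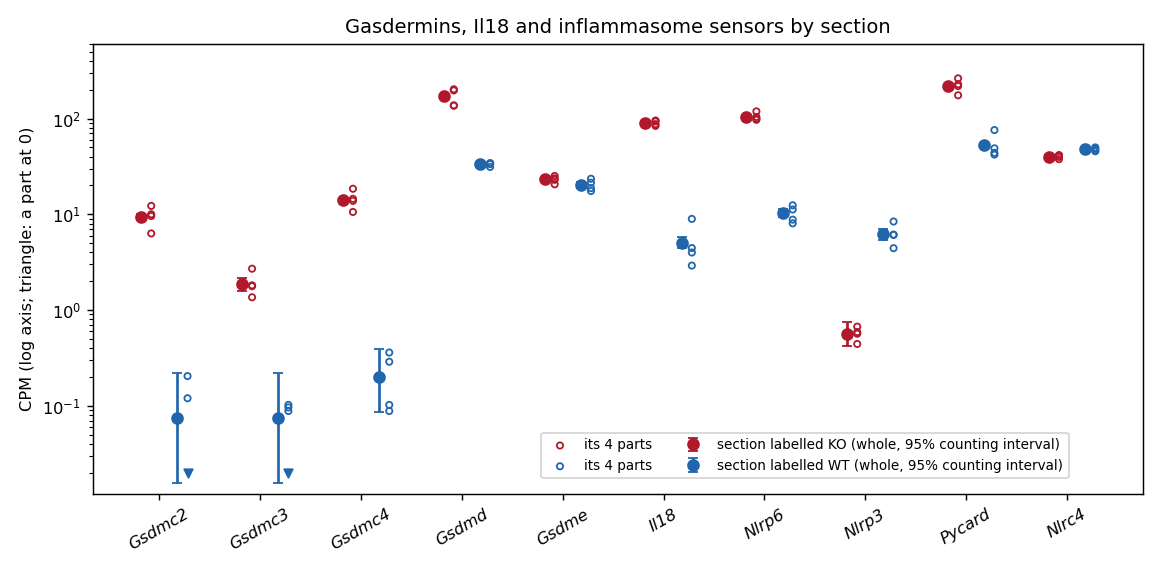
Level of each member in CPM on a log axis, with the section labelled KO in red and the section labelled WT in blue. Filled points are whole sections with 95% counting intervals, open points the 4 parts of a section, and triangles mark parts at 0 counts; the 2 colours overlap for Gsdme and lie close for Nlrc4, and Nlrp3 is the member with red far below blue.

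The gasdermin C genes were nearly silent in the section labelled WT. Gsdmc4 (chromosome 15, 63891140 to 63912319 in RefSeq on GRCm38.p6), which encodes a pore-forming gasdermin of the C branch, had 1264 counts (14.1 CPM) in the section labelled KO and 8 counts (0.201 CPM) in the section labelled WT. Its log2 ratio was 6.13 (5.15 to 7.35), and its parts ran between 10.6 and 18.5 CPM in the section labelled KO and between 0.0883 and 0.360 CPM in the section labelled WT. Gsdmc2 (63824328 to 63845193 on the same chromosome) had 837 counts (9.33 CPM) in the section labelled KO against 3 counts (0.0753 CPM) in the section labelled WT, a log2 ratio of 6.95 (5.40 to 9.23). Gsdmc3, which lies between these genes at 63857605 to 63878579, had 168 counts (1.87 CPM) in the section labelled KO and 3 counts in the section labelled WT, with a log2 ratio of 4.64 (3.06 to 6.93). It missed the minimum of 200 counts and is left out of the counts of genes above. These genes are closely similar copies in mouse and, as the treatment of shared reads was not given in the sources used here, their split into single genes is uncertain. Their pseudogene Gsdmcl2, named here after its values were seen, stood at 167 counts in the section labelled KO and 2 in the section labelled WT. The 4 other gasdermin genes listed, Gsdma, Gsdma2, Gsdma3 and Gsdmc, each had fewer than 200 counts over both sections.

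Gsdmd (chromosome 15, 75862144 to 75867408), the gasdermin cleaved by caspase-1, had 15238 counts (169.8 CPM) in the section labelled KO and 1326 counts (33.3 CPM) in the section labelled WT. The log2 ratio was 2.35 (2.27 to 2.43). The 4 parts stood at 137, 136, 196 and 202 CPM in the section labelled KO, and at 33.8, 33.5, 31.2 and 34.3 CPM in the section labelled WT. Gsdmd was thus uneven across the section labelled KO, with the higher values in the parts at larger horizontal positions, and even across the section labelled WT. Gsdme (chromosome 6, 50207401 to 50263857), another gasdermin whose cleaved form makes pores, differed little, at 23.1 CPM in the section labelled KO and 20.3 CPM in the section labelled WT. Its log2 ratio was 0.19 (0.07 to 0.30), and its parts overlapped, at 20.5 to 25.1 CPM in the section labelled KO and 17.5 to 23.5 CPM in the section labelled WT.

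Il18 (chromosome 9, 50554700 to 50581841), the gene of the cytokine precursor that caspase-1 matures, had 8084 counts (90.1 CPM) in the section labelled KO and 202 counts (5.07 CPM) in the section labelled WT. The log2 ratio was 4.15 (3.95 to 4.36). Its 4 parts stood at 95.3, 87.3, 83.8 and 93.3 CPM in the section labelled KO, and at 3.99, 2.91, 4.44 and 8.95 CPM in the section labelled WT. The part of the section labelled WT with the highest Il18 was the one at larger positions on both axes, and the parts of the 2 sections were far from overlapping.

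Nlrp6 (chromosome 7, 140920902 to 140929192), a sensor known from the intestinal epithelium, had 9360 counts (104 CPM) in the section labelled KO and 409 counts (10.3 CPM) in the section labelled WT, a log2 ratio of 3.34 (3.20 to 3.49). Pycard (chromosome 7, 127991373 to 127993867), which encodes the adaptor that joins sensors to caspase-1, had 19553 counts (218 CPM) in the section labelled KO and 2119 counts (53.2 CPM) in the section labelled WT, a log2 ratio of 2.03 (1.97 to 2.10). The adaptor gene was uneven in both sections, with parts at 263, 228, 218 and 175 CPM in the section labelled KO and at 43.9, 48.8, 42.0 and 75.7 CPM in the section labelled WT. The part at larger positions on both axes was the lowest for Pycard in the section labelled KO and the highest in the section labelled WT.

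The other sensors went different ways. Nlrp3 (chromosome 11, 59541569 to 59566955), which responds to signs of cell damage, had 51 counts (0.568 CPM) in the section labelled KO and 245 counts (6.15 CPM) in the section labelled WT. The log2 ratio was −3.44 (−3.90 to −3.00), with parts at 0.442 to 0.671 CPM in the section labelled KO and 4.43 to 8.40 CPM in the section labelled WT. Nlrc4 (chromosome 17, 74426255 to 74459144), which works with the NAIP receptors for bacterial flagellin and secretion proteins, stood at 40.02 CPM in the section labelled KO and 47.8 CPM in the section labelled WT. Its log2 ratio of −0.26 (−0.34 to −0.18) was close to the median of all genes, and its parts lay narrowly apart, at 37.6 to 41.5 CPM in the section labelled KO and 45.5 to 49.9 CPM in the section labelled WT.

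In tiles measuring 100 position units a side and holding 200 spots or more, 3 of the 10 members had every tile of the section labelled KO above every tile of the section labelled WT, against 4.17% of the 14516 genes. These were Gsdmd, Il18 and Nlrp6. Gsdmd ran between 60.5 and 371 CPM (median 154) over the 92 tiles of the section labelled KO and between 11.2 and 56.3 CPM (median 31.9) over the 65 tiles of the section labelled WT. Il18 ran between 48.5 and 184 CPM (median 85.3) in the section labelled KO and between 0 and 27.4 CPM (median 3.43) in the section labelled WT. Nlrp6 had its lowest tile at 52.0 CPM in the section labelled KO and its highest at 23.7 CPM in the section labelled WT. The tiles of the remaining members overlapped, and 62 of the 65 tiles of the section labelled WT held no Gsdmc2 count.

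The start sites of 7 members could be shown. RefSeq windows of GRCm38.p6 cover the 250 bases before and 50 bases after an annotated start, and were given for Gsdmc3, Gsdme, Il18, Nlrp6, Nlrp3, Pycard and Nlrc4. Printed are 3 genes that were far higher in the section labelled KO (Gsdmc3, Il18 and Nlrp6) and the 1 that was far lower (Nlrp3, first of 2 windows), each 5′ to 3′ on the strand of its gene, with motif matches in capitals. They lie at chr15:63878509-63878808 on the minus strand, chr9:50554450-50554749, chr7:140920652-140920951 and chr11:59541319-59541618, the last 3 on the plus strand.
Gsdmc3: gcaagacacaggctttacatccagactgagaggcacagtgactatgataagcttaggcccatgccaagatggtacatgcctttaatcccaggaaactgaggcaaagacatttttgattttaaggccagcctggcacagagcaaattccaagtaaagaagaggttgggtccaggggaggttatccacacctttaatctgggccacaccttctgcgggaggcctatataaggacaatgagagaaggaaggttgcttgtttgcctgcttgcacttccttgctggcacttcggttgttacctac
Il18: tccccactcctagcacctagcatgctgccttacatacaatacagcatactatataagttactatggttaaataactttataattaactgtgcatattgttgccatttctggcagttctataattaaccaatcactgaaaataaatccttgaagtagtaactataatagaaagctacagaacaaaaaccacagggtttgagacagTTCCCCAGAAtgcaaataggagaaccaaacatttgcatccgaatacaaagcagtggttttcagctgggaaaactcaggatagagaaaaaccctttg
Nlrp6: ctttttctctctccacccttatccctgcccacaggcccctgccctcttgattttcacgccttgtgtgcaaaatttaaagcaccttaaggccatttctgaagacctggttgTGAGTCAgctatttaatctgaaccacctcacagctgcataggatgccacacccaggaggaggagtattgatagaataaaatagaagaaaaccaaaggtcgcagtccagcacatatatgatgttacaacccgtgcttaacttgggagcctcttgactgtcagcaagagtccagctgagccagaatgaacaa
Nlrp3: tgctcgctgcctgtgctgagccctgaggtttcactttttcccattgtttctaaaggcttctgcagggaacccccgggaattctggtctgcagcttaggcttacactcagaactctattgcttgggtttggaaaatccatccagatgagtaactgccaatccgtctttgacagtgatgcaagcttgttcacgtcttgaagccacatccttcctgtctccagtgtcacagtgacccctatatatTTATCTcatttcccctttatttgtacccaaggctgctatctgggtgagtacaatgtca
The windows were searched on both strands for 6 motifs, namely CAAAGTCCA for HNF4, AGATAA for GATA factors, TTTATNG for CDX, TGANTCA for AP-1, TTC and GAA 4 bases apart for STAT6, and the NF-kB motif GGGA and TTTCC with 1 base between. Il18 held the STAT6 letters at bases −46 to −37 from its start, which 6.95% of 32851 windows hold at some place. Nlrp6 held the AP-1 letters at −140 to −134, present in 7.81% of windows. The Nlrp3 window printed held the GATA letters at −8 to −3 on the opposite strand, present in 11.2% of windows, and the second Nlrp3 window held the STAT6 letters at −122 to −113. Gsdmc3, Gsdme, Pycard and Nlrc4 held none of the 6. A match is a description of letters in these windows and not a bound site.

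The members were next followed by tissue compartment. Squares of 25 position units a side that held 10 spots and 5000 counts or more were called rich in a compartment where the summed level of its markers was in the top 10% of their own section, and the member's CPM there was set over its CPM in the other squares. This gave 138 rich squares of 1375 in the section labelled KO and 88 of 874 in the section labelled WT for each of 18 compartments, which overlap. No member is among the markers.

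**Figure D2:**
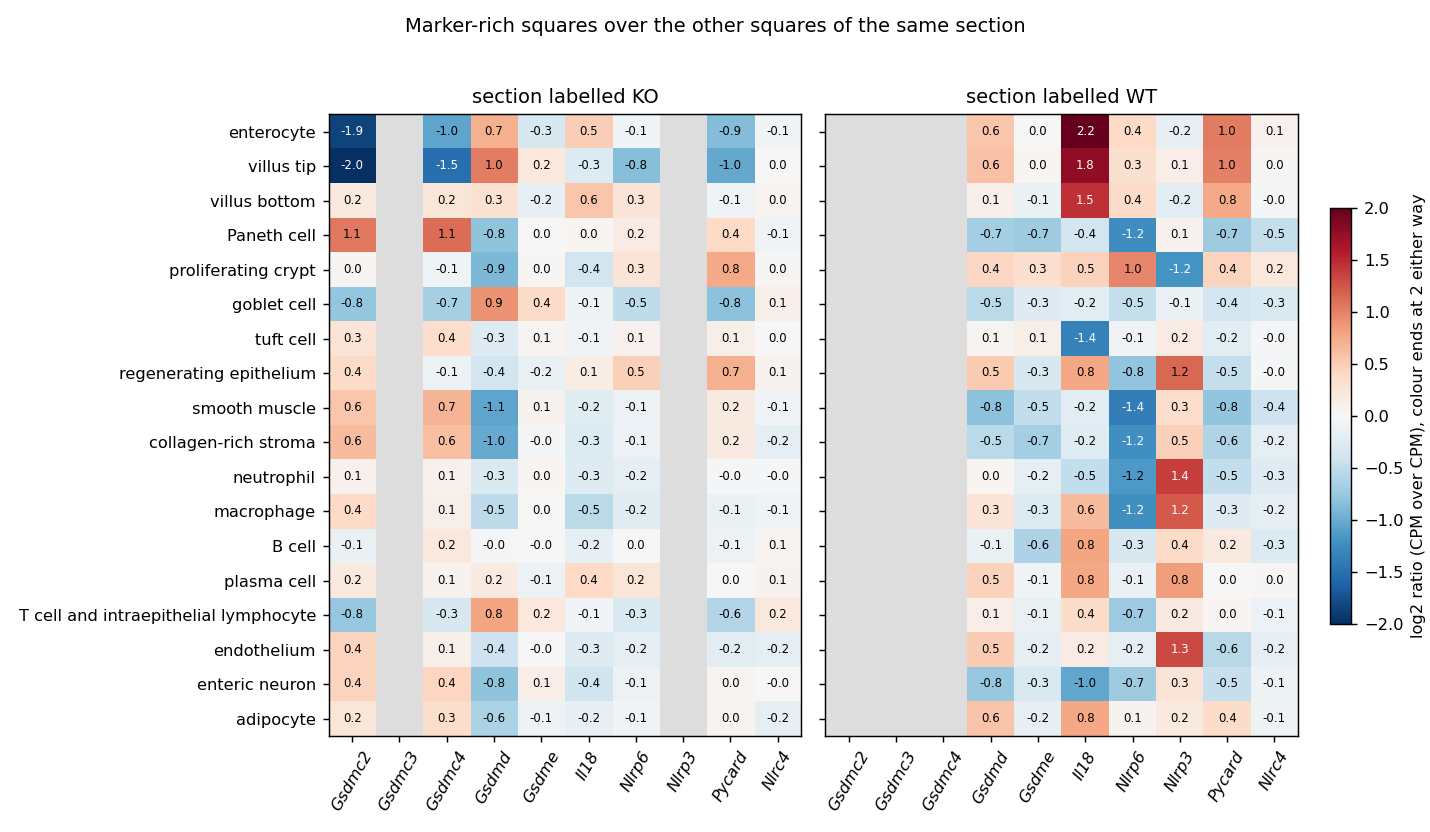
Log2 ratio of each member's CPM in marker-rich squares over the other squares of the same section, with compartments as rows and members as columns. The left panel is the section labelled KO and the right one the section labelled WT. Grey marks members with fewer than 200 counts in the squares of that section. Gsdmd and the gasdermin C genes have opposite signs in the villus tip and Paneth rows of the left panel, while Il18 and Pycard have their highest ratios in the enterocyte and villus tip rows of the right panel.

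Within the section labelled KO, Gsdmd and the gasdermin C genes had opposite signs in villus tip-rich and in Paneth-rich squares. In villus tip-rich squares Gsdmd stood at 313 CPM against 154 CPM in the other squares, a log2 ratio of 1.02 (0.96 to 1.08), and the ratio lay between 0.76 and 1.05 in the 4 parts taken separately. It was the 1 member at least 2-fold higher there, against 1.68% of 13145 genes, and over other square sizes, marker cuts and single spots the ratio ran from 0.94 to 1.17, on both sides of 2-fold. Gsdmd was also high in goblet-rich squares, at 289 CPM against 155 CPM and 0.90 (0.84 to 0.96), and in squares rich in T cell and intraepithelial lymphocyte markers, at 272 CPM against 158 CPM and 0.78 (0.72 to 0.84). Of the 138 villus tip-rich squares, 67 were also goblet-rich and 39 were rich in those lymphocyte markers. Gsdmc2 stood at 2.47 CPM in those squares and 10.1 CPM elsewhere, at −2.03 (−2.71 to −1.42), and Gsdmc4 at 5.29 CPM against 15.03 CPM elsewhere, at −1.51 (−1.96 to −1.09). Pycard, the adaptor gene, was lower at the tip too, at 113 CPM against 229 CPM elsewhere and −1.02 (−1.11 to −0.93). These 3 members were at least 2-fold lower there, as were 16.6% of genes, though Pycard ran from −1.17 to −0.86 over the same alternatives. The sensor gene Nlrp6 stood at −0.84 (−0.97 to −0.72) and Il18 at −0.27 (−0.38 to −0.16). In enterocyte-rich squares Gsdmc2 at −1.85 (−2.43 to −1.33) and Gsdmc4 at −1.05 (−1.40 to −0.72) were again 2-fold lower, as were 18.4% of genes, though Gsdmc4 ran from −1.21 to −0.86 over the alternatives, while Gsdmd stood at 0.71 (0.65 to 0.77).

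Paneth-rich squares of the section labelled KO showed the reverse. Gsdmc4 stood at 27.6 CPM there against 12.7 CPM in the other squares, a log2 ratio of 1.12 (0.91 to 1.33) that was between 0.77 and 1.63 in the 4 parts. Gsdmc2 stood at 17.7 CPM against 8.47 CPM, at 1.06 (0.79 to 1.32), but its parts ran from −0.02 to 2.29, so the excess was not present in each of them. Among members with 200 or more counts in the section's squares these 2 were at least 2-fold higher, against 5.66% of genes. With single spots in place of squares neither was, at 0.62 for Gsdmc2 and 0.86 for Gsdmc4, which were the lowest values over the alternatives and still above 0. Gsdmc3 stood at 0.89 (0.24 to 1.49) on 27 counts in the rich squares. Gsdmd was lower, at 102 CPM against 177 CPM and −0.80 (−0.90 to −0.70), with all 4 parts between −1.12 and −0.41. By distance from the nearest Paneth-rich square, Gsdmc2 stood at 17.7 CPM within them, 11.6 CPM in the adjoining squares, 8.89 and 7.69 CPM in the next bands and 5.87 CPM at 90 position units or more. Gsdmd stood at 102, 149, 180, 174 and 195 CPM over the same steps, so the levels of these gasdermins changed in opposite senses away from the crypt base markers.

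Pycard was highest relative to the rest in squares rich in proliferation markers, at 344 CPM against 204 CPM and a log2 ratio of 0.76 (0.70 to 0.81). It was nearly as high in regenerating epithelium-rich squares, at 335 CPM, and 40 of the 138 squares of each set were shared. Il18 was highest relative to the rest in villus bottom-rich squares, at 125 CPM against 85.1 CPM and 0.55 (0.47 to 0.64), and in enterocyte-rich squares, at 121 CPM against 85.9 CPM and 0.49 (0.40 to 0.58). Its 4 parts were all above 0 in both, at 0.33 to 0.83 and at 0.38 to 0.59. Nlrp6 was highest relative to the rest in regenerating epithelium-rich squares, at 140.1 CPM against 100.1 CPM and 0.48 (0.40 to 0.57), and stayed within 0.27 either way in enterocyte, Paneth, villus bottom and proliferating squares. Nlrc4 and Gsdme were near flat, with Nlrc4 at 0.00 in villus tip-rich, −0.05 in enterocyte-rich and −0.07 in Paneth-rich squares. Gsdme ran from −0.32 in enterocyte-rich squares to 0.38 in goblet-rich squares. In smooth muscle-rich squares Gsdmd was at least 2-fold lower, at −1.06 (−1.17 to −0.95), against 1.58% of genes, and from −1.02 to −0.84 over the alternatives, while Gsdmc4 stood at 0.68 (0.45 to 0.91). Markers of Paneth cells and of the muscle layer lie near each other in the tissue, and a spot or square can hold several cell types. Of the 138 Paneth-rich squares of the section labelled KO, 55 were also smooth muscle-rich.

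An order from crypt-like to villus-like was made within each section from squares at or above the section's median share of pan-epithelial markers, by enterocyte and villus tip markers over Paneth and proliferation markers, cut into 5 bins. In the section labelled KO, Gsdmd stood at 151, 191, 219, 227 and 307 CPM from the crypt end to the villus end. Gsdmc2 stood at 9.72, 7.55, 8.88, 5.04 and 2.96 CPM, and Gsdmc4 at 12.3, 10.9, 11.97, 9.75 and 4.43 CPM. The first bin thus did not repeat the excess of the Paneth-rich squares. Over the whole section Gsdmc2 stood at 9.33 CPM and Gsdmc4 at 14.1 CPM. Squares rich in proliferation markers were near that too, at 9.58 CPM for Gsdmc2 and 13.3 CPM for Gsdmc4. Gsdmd was the 1 member at least 2-fold higher in the last bin over the first, against 2.09% of genes, and Gsdmc2 and Gsdmc4 were at least 2-fold lower, as were 22.6%. Pycard stood at 209.6, 191, 191, 176 and 120.0 CPM, while Nlrp6 held between 91.4 and 100.7 CPM in the first 4 bins and stood at 66.5 CPM in the last. Il18 stood at 67.5, 81.2, 82.7, 92.8 and 88.9 CPM. Gsdmd and Il18 were thus lowest in the first bin, and the gasdermin C genes, Pycard and Nlrp6 lowest in the last. That first bin still held 21046 CPM of enterocyte markers and 7007 CPM of Paneth cell markers. By distance Il18 did not repeat this order. It stood at 91.9 CPM in Paneth-rich squares, 103 CPM in the adjoining squares and 79.1 CPM at 90 position units or more.

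**Figure D3:**
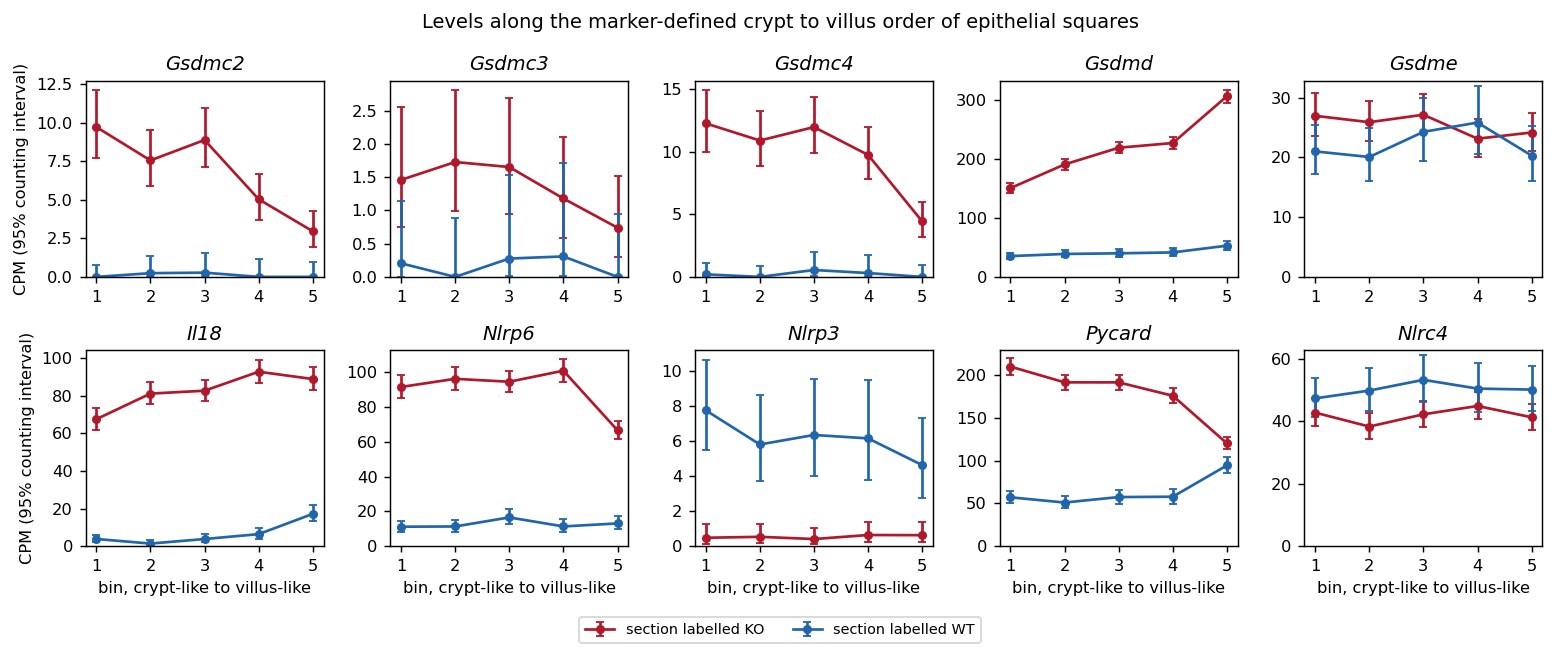
CPM of each member with 95% counting intervals in 5 bins of epithelial squares ordered from crypt-like to villus-like by markers, within the section labelled KO (red) and the section labelled WT (blue). Gsdmd increases along the order in the section labelled KO, to 307 CPM, where Gsdmc2, Gsdmc4 and Pycard decrease, and Il18 and Pycard have their highest values in the last bin of the section labelled WT.

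The same order in the section labelled WT covered other tissue. Its last bin held 1845 CPM of enterocyte markers and still 43349 CPM of Paneth cell markers, where the last bin of the section labelled KO held 38541 CPM of enterocyte markers and 1959 CPM of Paneth cell markers. Within it Il18 stood at 3.88, 1.45, 3.86, 6.46 and 17.2 CPM from the crypt end to the villus end, Pycard at 57.1, 51.0, 57.4, 57.8 and 94.4 CPM, and Gsdmd at 35.3, 38.9, 40.01, 41.5 and 53.0 CPM. For Il18 and Pycard, most of the increase was between the fourth and the fifth bin. Il18 was the 1 member at least 2-fold higher in the last bin over the first, against 2.04% of genes. Nlrc4 ran between 47.3 and 53.3 CPM and Nlrp3 between 4.63 and 7.75 CPM with overlapping intervals.

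Enterocyte-rich squares of the section labelled WT held more Il18 and Pycard than its other squares. Il18 had 70 counts (17.2 CPM) there against 3.71 CPM elsewhere, a log2 ratio of 2.21 (1.77 to 2.64), though its 4 parts ran from −0.24 to 2.34. Pycard stood at 99.1 CPM against 48.2 CPM, at 1.04 (0.88 to 1.198), with parts from −0.66 to 0.97. Both passed 2-fold, against 1.13% of 11650 genes, and both did so in villus tip-rich squares, at 1.78 for Il18 and 1.01 for Pycard, against 1.18% of genes. With single spots Pycard missed 2-fold in both, at 0.59 for enterocyte-rich and 0.52 for villus tip-rich spots, and with the top 20% of squares it stood at 0.69 and 0.79. Il18 passed 2-fold in both under all alternatives run. For neither gene was the excess in enterocyte-rich squares present in each part of the section. Gsdmd stood at 46.7 CPM against 31.7 CPM, at 0.56 (0.33 to 0.78), with all 4 parts between 0.27 and 0.83. Nlrp6 stood at 0.39 (−0.05 to 0.81) with an interval that reaches 0. No Gsdmc2, Gsdmc3 or Gsdmc4 count lay in these squares.

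Set side by side, the sections differed by much less for Pycard in enterocyte-rich squares than over the whole. Pycard stood at 127 CPM in the enterocyte-rich squares of the section labelled KO and 99.1 CPM in those of the section labelled WT, a log2 ratio of 0.35 (0.19 to 0.52), where the whole sections gave 2.03. In Paneth-rich squares the values were 278 CPM in the section labelled KO and 34.8 CPM in the section labelled WT, at 2.997 (2.79 to 3.21). Gsdmd had a ratio of 2.47 (2.25 to 2.69) in enterocyte-rich squares, at 258 CPM in the section labelled KO and 46.7 CPM in the section labelled WT. There Il18 stood at 121 CPM in the section labelled KO and 17.2 CPM in the section labelled WT, at 2.81 (2.46 to 3.18). Nlrp6 stood at 100.3 CPM in the section labelled KO and 13.0 CPM in the section labelled WT, at 2.95 (2.55 to 3.37). These squares were not matched, since enterocyte markers summed to 40950 CPM in those of the section labelled KO and 1890 CPM in those of the section labelled WT. Squares with 8000 CPM or more of these markers numbered 1374 of 1375 in the section labelled KO and 5 in the section labelled WT. These were not matched either, as they are nearly the whole section labelled KO, with all its tissues. Its squares had a median of 25123 CPM of these markers, and no square of the section labelled WT exceeded 13616 CPM. At 8000 CPM or more the log2 ratio was 0.49 (−0.21 to 1.30) for Gsdmd and 0.53 (−0.10 to 1.24) for Pycard, both reaching 0. It was 1.99 (0.45 to 4.27) for Il18 and 2.20 (0.66 to 4.48) for Nlrp6, each on 3 counts in the section labelled WT. The gasdermin C genes had 0 counts in the 5 squares of the section labelled WT. Their lower limits of the log2 ratio were below 0, at −1.58 for Gsdmc2, −3.90 for Gsdmc3 and −0.98 for Gsdmc4. Paneth cell markers summed to 18593 CPM in the Paneth-rich squares of the section labelled KO and 172966 CPM in those of the section labelled WT. In the Paneth-rich squares of the section labelled WT, Nlrp6 was the 1 member at least 2-fold lower than elsewhere, at −1.24 (−1.84 to −0.69), against 4.22% of genes, and it ran from −1.53 to −0.67 over the alternatives, with single spots at −0.74 (−1.27 to −0.25).

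Squares with many enterocyte markers were rare in the section labelled WT. Over its 874 squares these markers ran from 0 to 13616 CPM with a median of 238 CPM, against 7604 to 47648 CPM and a median of 25123 CPM over the 1375 squares of the section labelled KO. A set of 20 squares at 2000 CPM or more, a threshold chosen after the values were seen, lay in 5 tiles, with 8 of them in a single tile. These islands had 4779 CPM of enterocyte markers against 281 CPM elsewhere. Il18 had 32 counts (30.1 CPM) in them and 4.405 CPM in the other squares, a log2 ratio of 2.77 (2.18 to 3.32). Of these counts, 23 lay in the 9 squares at 2000 to 4000 CPM of markers, at 38.3 CPM. Il18 was not higher in squares with more markers, at 18.2 CPM on 6 counts from 4000 to 8000 CPM. At 8000 CPM or more it stood at 22.6 CPM on 3 counts. Over all 20 squares Pycard stood at 146 CPM against 50.8 CPM elsewhere, at 1.52 (1.28 to 1.76), and Gsdmd at 69.6 CPM against 32.2 CPM, at 1.11 (0.75 to 1.45). Enterocyte-rich squares of the section labelled KO lay below these islands for Pycard, at 127 CPM. They lay above them for Gsdmd at 258 CPM, Il18 at 121 CPM and Nlrp6 at 100.3 CPM. The folds given next are for the whole section labelled KO, with all its tissues. It exceeded these islands 1.49-fold for Pycard, 2.44-fold for Gsdmd, 2.99-fold for Il18 and 7.39-fold for Nlrp6. At a threshold of 1000 CPM, with 36 squares, the folds were 1.66 for Pycard, 3.09 for Gsdmd, 4.22 for Il18 and 7.60 for Nlrp6. At 4000 CPM, with 11 squares, they were 1.57 for Pycard, 1.87 for Gsdmd, 4.63 for Il18 and 6.03 for Nlrp6, so Gsdmd lay close to Pycard there. Nlrp6 had 15 counts (14.1 CPM) in the islands and 10.1 CPM elsewhere, at 0.48 (−0.37 to 1.22). Gsdmc2, Gsdmc3 and Gsdmc4 had 0 counts among the 1062663 of the islands. Read as 3 counts this is 2.82 CPM each, below the exact Poisson upper limit of 3.47 CPM. Against 3 counts the section labelled KO stood 4.99-fold higher for Gsdmc4 and 3.30-fold higher for Gsdmc2. These folds were 9.23 and 6.11 at the threshold of 1000 CPM and 2.17 and 1.44 at 4000 CPM. They are not lower limits. The exact lower limits of the log2 ratio of the section labelled KO over the islands were 2.02 for Gsdmc4 and 1.42 for Gsdmc2. They were 2.91 and 2.31 at 1000 CPM, and 0.82 and 0.22 at 4000 CPM. For Gsdmc3 the lower limit was below 0 at each threshold.

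**Figure D4:**
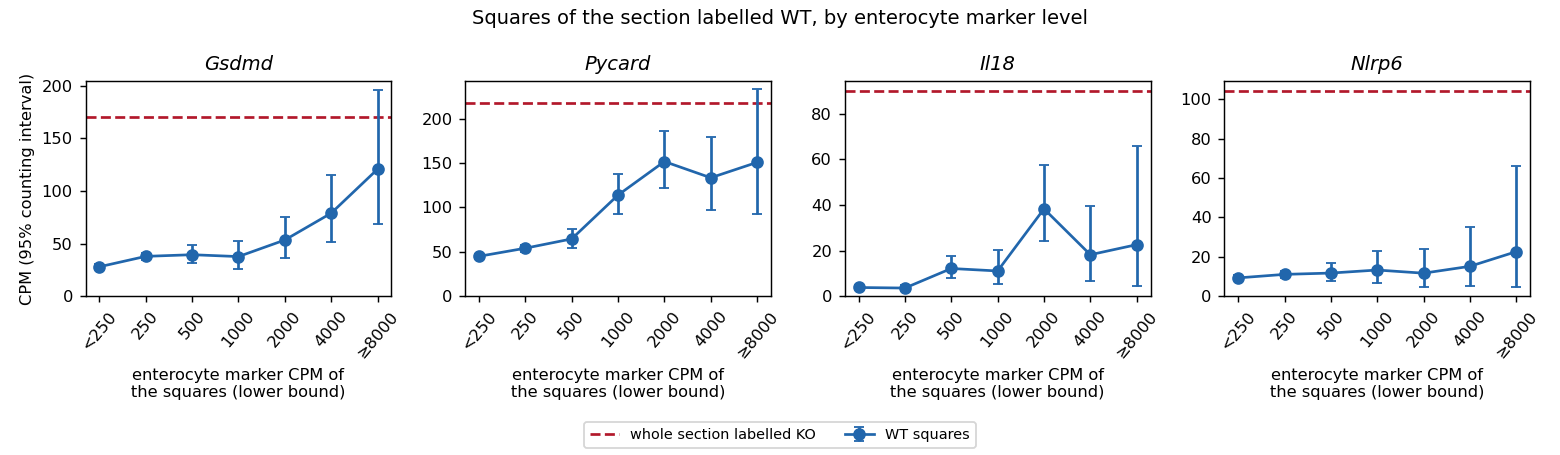
CPM of 4 members with 95% counting intervals in squares of the section labelled WT (blue), grouped by the summed enterocyte marker CPM of the square on a horizontal axis of unequal steps. The dashed red line is the whole section labelled KO. Pycard is at 114 CPM or more from 1000 CPM of markers upward, and Nlrp6 stays far below the dashed line in all groups.

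Nlrp3 was highest where inflammatory cell markers were high in the section labelled WT. It had 38 counts (14.0 CPM) in neutrophil-rich squares against 5.39 CPM elsewhere, a log2 ratio of 1.38 (0.84 to 1.89), and was the 1 member at least 2-fold higher there, against 1.33% of genes. Nlrp6 was the 1 member at least 2-fold lower, at −1.15 (−2.07 to −0.36), against 0.567% of genes, but at −0.60 (−1.31 to 0.03) with single spots, which reaches 0. The Nlrp3 ratio was 1.31 (0.70 to 1.88) in endothelium-rich, 1.23 (0.66 to 1.76) in macrophage-rich and 1.15 (0.59 to 1.68) in regenerating epithelium-rich squares. These sets are not separate, since 45 of the 88 neutrophil-rich squares (51.1%) were also endothelium-rich, 33 were rich in regenerating epithelium and 27 in macrophages. Nlrp3 had a value in 3 parts for neutrophil-rich squares, from 0.24 to 1.63, and in 4 parts for macrophage-rich squares, from 0.90 to 1.63, where 3.35% of genes passed 2-fold. Over the alternatives its ratio ran from 1.27 to 1.70 for neutrophil-rich and from 0.90 to 1.41 for macrophage-rich squares. Squares rich in proliferation markers stood at −1.201 (−2.22 to −0.33) on 11 counts. The spots with at least 1 neutrophil marker count held 43.3% of the Nlrp3 counts of the section and 30.6% of all counts, at 8.70 CPM against 5.03 CPM in the other spots. Neutrophil, macrophage and endothelial markers were all lower in the section labelled KO, as the neutrophil sum of 4.60 CPM against 539 CPM shows, and their part in the ratio between the sections was not tested.

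**Figure D5:**
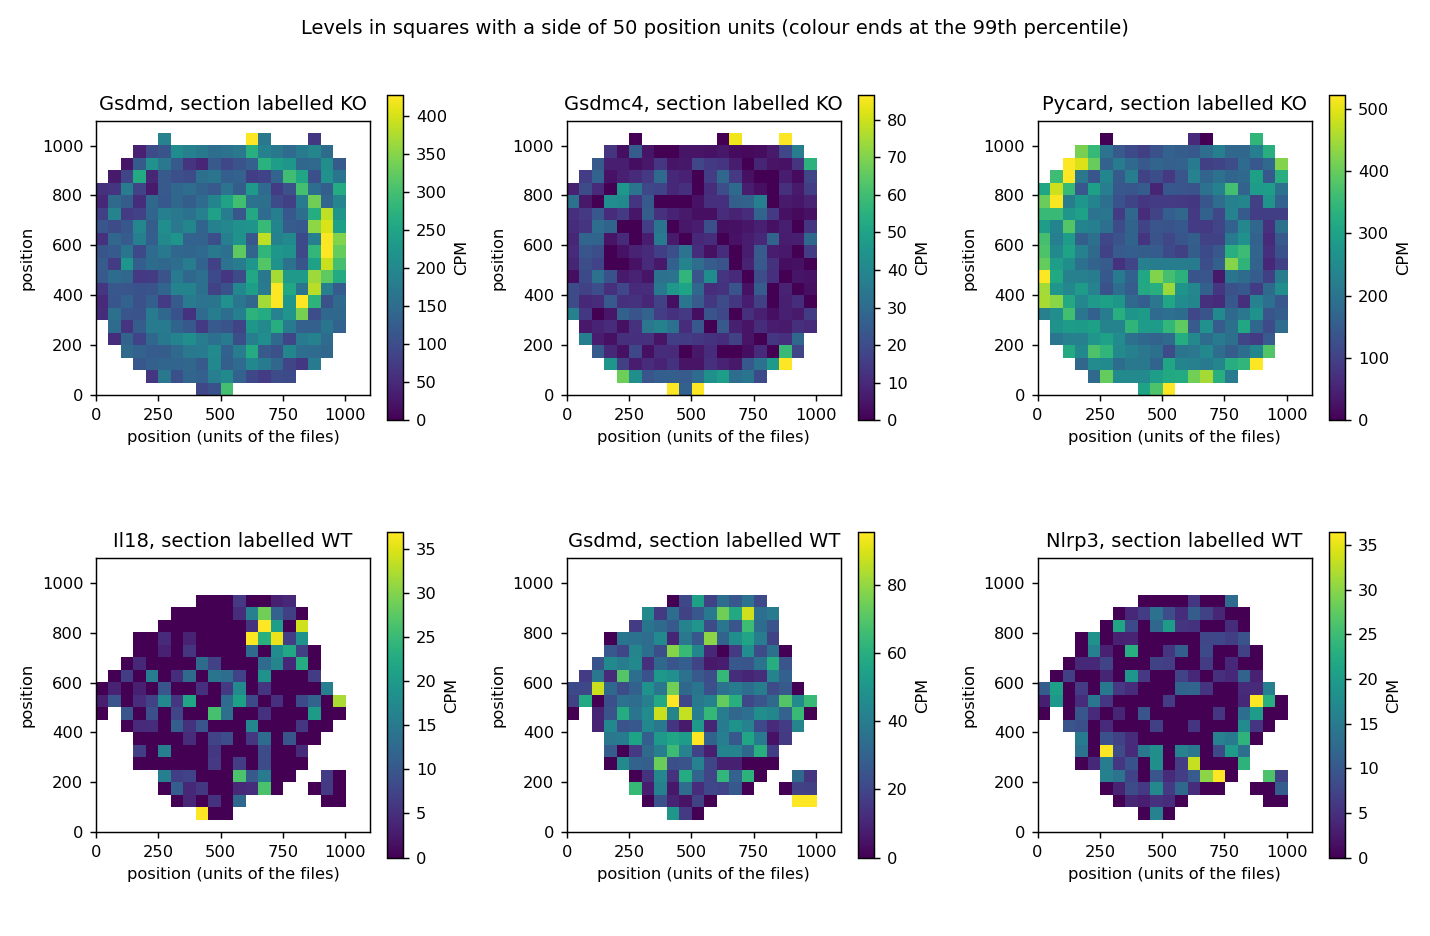
CPM in squares with a side of 50 position units, for Gsdmd, Gsdmc4 and Pycard in the section labelled KO (upper row) and Il18, Gsdmd and Nlrp3 in the section labelled WT (lower row), each with its own colour scale. Gsdmd and Pycard of the section labelled KO are high in different places, and Il18 of the section labelled WT is highest in a patch at larger positions on both axes, in the part with 8.95 CPM.

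Over squares with a side of 50 position units, the members formed separate patterns in the section labelled KO. Across 351 squares Gsdmd and Pycard ran against each other, with a Spearman correlation of −0.55, whereas Nlrp6 ran with Pycard at 0.63 and with Il18 at 0.49. Gsdmc2 and Gsdmc4 ran together at 0.47, and each ran against Gsdmd, at −0.36 and −0.30. Squares share their library, their depth and their neighbours, so these values are descriptions. Among 7836 genes with 1000 or more counts, those most like Gsdmd were Ifi27l2b at 0.87, the brush border protease gene Mep1b at 0.86, the apolipoprotein gene Apoa1 at 0.85 and the keratin gene Krt20 at 0.85. Pycard was most like the galectin gene Lgals2 at 0.89, Dmbt1 at 0.88 and the glutathione peroxidase gene Gpx1 at 0.82. Nlrp6 was most like the genes of respiratory chain and ATP synthase subunits Uqcr11, Atp5a1 and Uqcrq, each at 0.74. Il18 was most like the fatty acid binding protein gene Fabp1 at 0.67, and Gsdmc4 most like Oat at 0.54 and the carbonic anhydrase gene Car4 at 0.53. Gsdme reached 0.36 at most and Nlrc4 0.23, so neither had a close partner. In the 235 squares of the section labelled WT the highest value was 0.46, of Gsdmd with the protease inhibitor gene Serpinb1a, and Lgals2 and Dmbt1 were again among the 5 most like Pycard, both at 0.42.

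The genes around the members were read from 7 lists. The inflammatory caspase gene Casp4 stood at a log2 ratio of −1.46 (−1.60 to −1.31). Casp1, which cleaves gasdermin D and the interleukin 18 precursor and is named here after its values were seen, stood at 0.81 (0.67 to 0.96), at 21.2 CPM in the section labelled KO and 12.1 CPM in the section labelled WT. Of the 7 other sensors with enough counts, 5 were at least 2-fold higher and 1 lower, beside 15.7% higher and 19.7% lower over all genes. Nlrp9b and Nlrp1b had enough counts through the section labelled KO alone. Nlrp9b, a sensor known from mouse intestinal epithelium, had 960 counts in the section labelled KO and 12 in the section labelled WT, at 5.15 (4.34 to 6.11). The flagellin receptor gene Naip5 stood at 2.91 and Nlrp1b at 1.87. Naip1, the most abundant by counts, stood at 0.28 (0.22 to 0.33). Its partner Nlrc4, at −0.26 (−0.34 to −0.18), was also within 2-fold but of the other sign. The 9 partners and regulators split evenly, with 3 higher, 3 lower and 3 within 2-fold. Among them Serpinb1a, which restrains inflammatory caspases, stood at 1.85, the pannexin channel gene Panx1 at 1.42, Txnip at −0.07 and Ninj1, whose product ruptures the membrane after gasdermin pores form, at −1.93.

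Cytokines of the interleukin 1 family other than Il18 went the other way. All 3 that had 200 or more counts were lower by 2-fold or more, as were 19.7% of all genes. Of these, Il1a and Il1b passed that minimum through the section labelled WT alone. Il1b had 64 counts in the section labelled KO and 4883 in the section labelled WT, at −7.43 (−7.81 to −7.07), Il1a had 2 counts in the section labelled KO and 263 in the section labelled WT, at −8.21 (−11.26 to −6.34), and the alarmin gene Il33 at −2.09. Of 8 receptor and antagonist genes, 6 were lower and none higher, with the decoy receptor gene Il1r2 at −5.98, the antagonist gene Il1rn at −3.92 and the receptor gene Il1r1 at −3.71. Il18 was thus the 1 cytokine gene of its family that was higher in the section labelled KO among those with 200 or more counts. The list for type 2 cytokine signalling, which is known to drive the gasdermin C genes, held 1 higher gene of 7, the mucin gene Muc13 at 2.97. It held 2 lower genes, beside 15.7% higher and 19.7% lower over all genes. The receptor gene Il4ra at −1.66 and the goblet cell gene Retnlb at −2.64 were lower, Sprr2a3 stood at 0.92, and Il13 had 1 count in the section labelled KO and 0 in the section labelled WT.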

How the data were processed

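The deposited files hold raw counts per gene and spot for 2 sections, and the deposited positions are scores along 2 axes with no unit stated in the headers. The reads were set on GRCm38, per the submitters' processing notes, with the counting tool and its treatment of molecular identifiers and shared reads not given in the sources used here. Per the labels' protocols, the authors kept spots under tissue by aligning images in BSTMatrix and BSTViewer. Counts were summed over spots and divided by the section's total to give CPM. Depth was 89754886 counts in the section labelled KO and 39824941 in the section labelled WT. Ratios carry exact binomial 95% intervals (Clopper-Pearson) and levels exact Poisson ones, for counting error only. A count of 0 was read against 3 counts. The members and all lists were chosen with earlier results of these data known. Around the members, up to 3 genes furthest from 0 and the 2 most abundant of each list are named, and genes outside this rule are marked. Some genes of 1 list are not reported here. The ratio script was tested on simulated data. Parts, tiles and squares lie within 1 section and are not replicates, and no doublet caller was run on spots. Python 3.11.15, numpy 2.4.6, scipy 1.17.1 and pandas 2.3.3 were used. Other scalings, spot choices, square sizes, marker cuts and single spots were tried.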

Additional observations from a re-analysis of the deposited data

Results flagged for a closer look

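The cases below are from the enterocyte, villus tip, villus bottom, Paneth, neutrophil, macrophage and smooth muscle compartments only. In 7 cases there a member was higher in marker-rich squares than elsewhere in 1 section and lower in the other. The 95% counting intervals lay on opposite sides of 0, and the difference was not tested. Other compartments are not in this count. Gsdmd in goblet-rich squares, for example, stood at 289 CPM in the section labelled KO, against 169.8 CPM over that whole section. In the section labelled WT it stood at 24.0 CPM there, against 33.3 CPM over the whole. The values that follow are log2 ratios of rich over other squares. Pycard stood at −0.86 in the section labelled KO and 1.04 in the section labelled WT for enterocyte-rich squares, at −1.02 in the section labelled KO and 1.01 in the section labelled WT for villus tip-rich squares, and at −0.090 in the section labelled KO and 0.75 in the section labelled WT for villus bottom-rich squares. For Paneth-rich squares Pycard stood at 0.39 in the section labelled KO and −0.71 in the section labelled WT, and for smooth muscle-rich squares at 0.18 in the section labelled KO and −0.79 in the section labelled WT. Il18 stood at −0.27 in the section labelled KO and 1.78 in the section labelled WT for villus tip-rich squares. Nlrp6 stood at 0.17 in the section labelled KO and −1.24 in the section labelled WT for Paneth-rich squares. Pycard thus accounts for 5 of the 7. In the 4 parts Pycard ran from −0.32 to 0.30 in the section labelled KO and from −1.10 to 1.03 in the section labelled WT for villus bottom-rich squares, and was below 0 throughout in the section labelled KO but from −0.66 to 0.97 in the section labelled WT for enterocyte-rich and from −0.32 to 1.11 for villus tip-rich squares. For Paneth-rich squares Pycard ran from −0.04 to 0.76 in the section labelled KO and from −0.90 to −0.48 in the section labelled WT, and Nlrp6 from −0.02 to 0.45 in the section labelled KO and from −2.26 to −0.53 in the section labelled WT. Il18 ran from −0.71 to −0.08 in the section labelled KO and from −0.25 to 1.93 in the section labelled WT for villus tip-rich squares. Pycard in smooth muscle-rich squares was the 1 case with opposite signs in all parts, at 0.02 to 0.53 in the section labelled KO and −1.03 to −0.23 in the section labelled WT. With single spots Nlrp6 for Paneth-rich spots of the section labelled KO was 0.10 with an interval that reaches 0. Enterocyte markers in the enterocyte-rich squares stood at 40950 CPM in the section labelled KO and 1890 CPM in the section labelled WT, and their part in these differences was not tested.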

How the results depend on the processing

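No paired analysis was possible because each genotype has 1 section. Over other scalings and spot choices the log2 ratio of KO over WT ranged from 6.58 to 7.51 for Gsdmc2, 2.95 to 4.82 for Gsdmc3 (4.64 as reported), 5.59 to 6.31 for Gsdmc4, 2.19 to 2.53 for Gsdmd, 3.84 to 4.33 for Il18, 2.94 to 3.53 for Nlrp6, 1.61 to 2.22 for Pycard, −3.50 to −3.25 for Nlrp3, 0.00 to 0.37 for Gsdme and −0.35 to −0.07 for Nlrc4, and 6 members were 2-fold higher and 1 lower in each. Scaling by the median of gene ratios moved all log2 ratios by 0.18. The number of members whose tiles did not overlap was 3 at a side of 100 position units, 0 at 50 and 7 at 200, where tiles hold fewer or more spots. The number at least 2-fold higher in enterocyte-rich squares of the section labelled WT was 2, but 1 with the top 20% of squares and 1 with single spots in place of squares, an alternative chosen after seeing the data. The compartment alternatives were run for the enterocyte, villus tip, villus bottom, Paneth, neutrophil, macrophage and smooth muscle compartments only. Ratios of the other compartments were not checked in this way. Some of the compartment ratios checked changed sign, and the cause was not tested. In Paneth-rich squares of the section labelled KO, Nlrc4, at −0.07, went to 0.07 with single spots. Nlrp3 stood at 6.23 CPM in Paneth-rich squares of the section labelled WT, against 6.15 CPM over that whole section. With single spots its log2 ratio there was −1.19 (−2.02 to −0.45). A further 4 are given next, and the list is not complete. In macrophage-rich squares of the section labelled KO, Gsdmc2, at 0.40, went to −0.13 at a side of 15 and −0.074 with 1 threshold over both sections, and Pycard, at −0.13, to 0.015 with the top 20% and 6.3e-05 with single spots. In smooth muscle-rich squares of the section labelled WT, Nlrc4, at −0.42, went to 0.16 with 1 threshold and 0.078 with single spots, and Gsdme, at −0.49, to 0.041 with single spots. With 202 Il18 and 245 Nlrp3 counts in the section labelled WT, depth limits what can be said of their place in it.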

Other observations

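Genes around the members had places of their own. Nlrp9b, the epithelial sensor gene, stood in the section labelled KO at 23.5 CPM in villus tip-rich squares against 9.29 CPM elsewhere, a log2 ratio of 1.34, and at −0.97 in Paneth-rich squares, so it ran with Gsdmd and not with Nlrp6. Serpinb1a, the inhibitor gene, stood at 2623 CPM in villus tip-rich squares of the section labelled KO against 1087 CPM elsewhere, at 1.27, and at 1.03 in those of the section labelled WT. Il1b stood at 313 CPM in neutrophil-rich squares of the section labelled WT against 109 CPM elsewhere, at 1.53, where Il1a stood at 1.66 and Il1r2 at 1.30. Nlrp3 was also high over these neutrophil-rich squares as a group, where 1.33% of genes were at least 2-fold higher. Whether the genes shared single squares was not tested. Ninj1, the membrane rupture gene, stood at −0.94 in villus tip-rich squares of the section labelled KO, opposite to Gsdmd.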
